A study of Mus musculus with 44 samples.

Results

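The genes described here are 8 mouse genes long reported as targets of the microRNA miR-155: Jarid2, Bach1, Cebpb, Tab2, Rheb, Picalm, Socs1 and Inpp5d. They were chosen by name, from the literature on this microRNA (miRNA), and each matched 1 of the 17158 RefSeq transcripts listed in the gene files. The central samples were 3 primary cultures of mouse cortical neurons, prepared from pups at P0–P1, treated with ara-C to poison dividing cells, transduced with lentivirus on day 5 in vitro (DIV 5) and harvested at DIV 14. All 3 viruses expressed EGFP from a synapsin promoter, which is active mainly in neurons. One virus expressed EGFP alone (the GFP culture), and the others held a miRNA hairpin in the 3′ UTR of EGFP, either pre-miR-155 or pre-miR-1a-1 (the miR-155 culture and the miR-1 culture). The methods place cultures in batches from separate litters but do not say which batch each transduced culture came from, so batch and virus cannot be told apart. The comparison of miR-155 with GFP asks how the RNA level and the poly(A) tails of a target change when the miRNA is added, and the miR-1 culture, which received an unrelated miRNA, shows the same genes after transduction with a different miRNA.

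Each culture had 1 RNA-seq library and 1 TAIL-seq library, an assay that sequences the 3′ end of an mRNA together with its tail. The context samples included cortical cultures at DIV 14 without stimulation, or with BDNF or glutamate and glycine (glu/gly) for 30 min. Further cultures at DIV 10 received KCl for 0, 10 or 30 min. Tissues were adult cortex and adult hippocampus, each from a male mouse, and embryonic hippocampus (E16). Visual cortex came from 4 mice kept in the dark and 4 mice exposed to light for 1 h, all after 1 week of housing in the dark. The study gives C57BL6J as its mouse strain. Ribosome profiling of the cultures that received a miRNA was not used, because each of those libraries carries the names of both miRNAs. The miRNAs themselves and the EGFP transcript are not among the genes of these files. The methods describe small-RNA blots of the transduced cultures, which were not analysed here.

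A miRNA guides an Argonaute protein to mRNAs that pair with its seed, nucleotides 2 to 8, and the bound mRNA is usually deadenylated and degraded. Strong sites are the 8mer (a match to the whole seed followed by an A) and the 7mer-m8 and 7mer-A1, which lack the A or the match to nucleotide 8, and the 6-nt match is weaker. In mammals miR-155 is best known from activated lymphocytes and macrophages, where many of its targets were described, and in brain it is mainly associated with activated microglia. The 8 genes span several functions. Jarid2 is a DNA-binding partner of the Polycomb complex PRC2. Bach1 and Cebpb are basic leucine zipper transcription factors, of which Bach1 represses heme oxygenase and other antioxidant genes. Tab2 links ubiquitin chains to the kinase TAK1, Rheb is the small GTPase that activates mTORC1, and Picalm is a clathrin adaptor. Socs1 and Inpp5d (SHIP1) restrain cytokine and phosphoinositide signalling, mainly in blood cells and microglia.

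The mature mouse miR-155-5p of RefSeq (GRCm38.p6) lies at chr16:84714143-84714165 on the plus strand and has 23 nt. Its seed is in capitals, and below it stand the matching sites in the 3′ UTRs of the 8 genes, shown because they are what makes each gene a candidate target and because they differ in number and type, with the matched letters in capitals and all sequences 5′ to 3′ on the mRNA strand.
miR-155-5p: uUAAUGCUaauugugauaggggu
Jarid2, first 8mer: actgattttgttttAGCATTAAactg
Jarid2, second 8mer: gtgtccctcacatcAGCATTAAtctt
Bach1, 8mer: tctatgaacagtttAGCATTAAgggt
Bach1, 7mer-m8: gaaatatattgcatAGCATTAtaca
Cebpb, 8mer: ccttttccgtttcgAGCATTAAagtg
Tab2, 8mer: gccataaggtagaaAGCATTAAtgaa
Socs1, 8mer: tgccgctgtgccgcAGCATTAAgtgg
Inpp5d, 8mer: agatgtttttaaaaAGCATTAAagaa
Picalm, 7mer-m8: tacatttaaaactcAGCATTAgtgc
Picalm, 7mer-A1: ggcgcattataaatGCATTAAtcct
Rheb, 7mer-A1: caagaattttatcgGCATTAAtttt

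Among 16888 annotated 3′ UTRs, searched on the mRNA strand, 11.8% held an 8mer (AGCATTAA) or a 7mer (AGCATTA or GCATTAA) and 2.85% held an 8mer. All 8 genes held an 8mer or a 7mer, as published targets would, and 6 of the 8 held an 8mer. Jarid2 (NM_001205043, chr13:44731271-44921643, plus strand, 18 exons) was the member with 2 8mers, at nucleotides 141 and 914 of a 3′ UTR of 1691 nt. Bach1 (NM_007520, chr16:87698954-87733346, plus strand, 5 exons) had its 8mer at nucleotide 2317 and its 7mer at nucleotide 2529 of 3475. Tab2 (NM_138667, chr10:7905648-7956123, minus strand, 7 exons) had a single 8mer at nucleotide 737 of 1787. Cebpb (NM_009883, chr2:167688915-167690432, plus strand, 1 exon) had its 8mer at nucleotide 454 of 520. Socs1 (NM_001271603, chr16:10783808-10785536, minus strand, 2 exons) had its 8mer at nucleotide 20 of 425, close to the stop codon, and Inpp5d (NM_010566, chr1:87620312-87720510, plus strand, 27 exons) at nucleotide 515 of 1187. Picalm (NM_146194, chr7:90130213-90209447, plus strand, 21 exons) had no 8mer but a 7mer-A1 at nucleotide 750, a 7mer-m8 at nucleotide 835 and 2 6-nt matches in a 3′ UTR of 1850 nt. Rheb (NM_053075, chr5:24802823-24842361, minus strand, 8 exons) had a single 7mer-A1, at nucleotide 264 of 841. In the coding sequence, Picalm gave 3 hits to the 7mer sequences and Inpp5d gave 2, and the other 6 genes gave none. An 8mer there would count as 2 hits, so the number of separate sites may be smaller.

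Some members also held sites to miR-1, whose 8mer is ACATTCCA. Jarid2 held an 8mer to miR-1 and Picalm a 7mer-m8, each in the 3′ UTR, and none of the other 6 genes held an 8mer or 7mer to miR-1 there. For Jarid2 and Picalm, the control miRNA thus had a site of its own. In the coding sequence, counted as for miR-155, Inpp5d gave 3 hits to the 7mer sequences of miR-1, Picalm gave 1 and the other 6 genes none.

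The RNA-seq library held 448022 reads on genes for GFP, 968675 for miR-1 and 2111244 for miR-155, and the TAIL-seq library 389654, 446538 and 480037 tags. With 1 library per culture there is no replicate and no test, and the intervals given with each change are 95% exact (Clopper-Pearson) intervals that cover counting error only. Markers of neurons summed to 4636, 4380 and 4444 CPM (counts scaled to the library total on genes) in the GFP, miR-1 and miR-155 cultures, with all 9 detected in each. Markers of astrocytes summed to 1678, 1478 and 1168, with all 8 detected. Markers of microglia summed to 51.3, 26.8 and 31.3, with 3, 2 and 4 of 12 detected and with Cx3cr1, P2ry12, Trem2, Tyrobp, C1qa, C1qc and Itgam at 0 in all 3. Fewer cells of a type and less RNA per cell cannot be told apart in these libraries, and the part of either in the changes below was not tested.

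The RNA of Jarid2 and Picalm was lower in the miR-155 culture than in the GFP culture and that of Rheb was little different. Changes are log2 ratios of reads scaled by the reads on genes, corrected for 3′-UTR length and centred on mRNAs that lack the 6-nt seed match (no-site mRNAs). Genes entered if GFP gave them 10 RPM (reads scaled to the authors' larger library total) or more. This cutoff uses the GFP library alone, which favours lower values against GFP for genes just above it. Jarid2, with 29 reads in GFP where the cutoff corresponded to 24.4, was such a gene. Jarid2 had 29 reads in GFP, 67 in miR-1 and 68 in miR-155. Its level was thus 64.7, 69.2 and 32.2 CPM, and only the miR-155 culture was low. The change of Jarid2 in miR-155 against GFP was −1.03 (−1.67 to −0.35), or 2.04-fold lower, and 55 of the 4483 genes past the cutoff had a lower value. Picalm had 112, 253 and 325 reads, or 250.0, 261 and 154 CPM, again with the low value in miR-155 alone. The change of Picalm was −0.72 (−1.03 to −0.40), or 1.65-fold lower. Rheb had 108, 259 and 448 reads, or 241, 267 and 212 CPM. The change of Rheb, −0.20 (−0.51 to 0.12), had an interval that spans 0.

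Of the 8 members these 3 passed the cutoff, and 2 of the 3 were at least 20% lower, where 20.4% of all genes past the cutoff were. At least 1.5-fold lower were the same 2 members and 7.2% of all genes. The other 5 members had fewer reads than the cutoff, which corresponded to 24.4 reads in the GFP library. Tab2 had 17 reads in GFP, 32 in miR-1 and 47 in miR-155, and its change of −0.79 (−1.62 to 0.10) was close to that of Picalm but with an interval that reaches 0. Bach1 had 20, 64 and 93 reads, and its change was −0.04 (−0.75 to 0.73). Cebpb had 4, 14 and 15 reads and a change of −0.34 (−1.99 to 1.71), which the depth cannot place on either side of 0. Inpp5d had 1, 13 and 10 reads, and Socs1 had 0, 0 and 5, so no change against GFP could be read for these myeloid genes. The count of 0 for Socs1 in GFP lay below the floor of 3 counts, which is 6.70 CPM in that library.

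**Figure D1:**
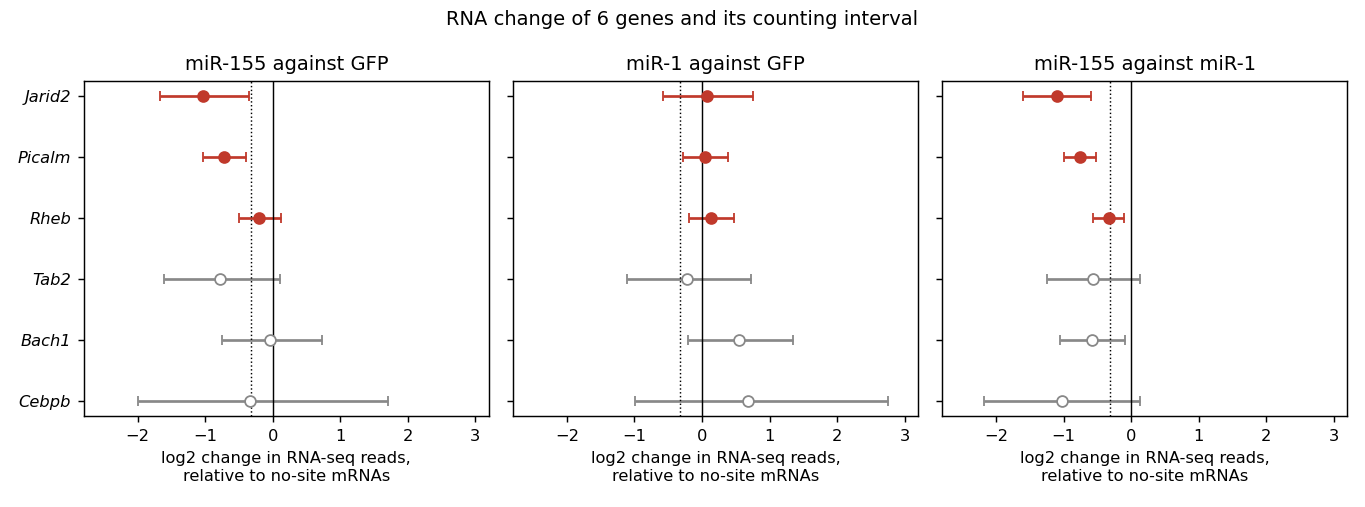
Log2 change of RNA-seq reads (x axis, relative to no-site mRNAs) for 6 genes (y axis) in the 3 comparisons of the GFP, miR-1 and miR-155 cultures. Points are single libraries compared, bars are 95% exact counting intervals, filled points are genes past the cutoff of 10 RPM, open points are below it, and the dotted line marks a decrease of 20%. Jarid2 and Picalm lie left of the dotted line with miR-155 in both comparisons that contain it and near 0 in miR-1 against GFP.

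In the specificity control, none of the 3 members past the cutoff was lower. Against GFP, miR-1 gave 0.08 (−0.57 to 0.76) for Jarid2, 0.14 (−0.19 to 0.47) for Rheb and 0.04 (−0.28 to 0.38) for Picalm, and 0 of 3 members were at least 20% lower, against 23.5% of all genes. The interval of Jarid2 still allows a decrease to −0.57. In the same comparison, mRNAs with an 8mer to miR-1 had a median of −0.26 (n = 217). Below the cutoff, Tab2 had −0.22 (−1.11 to 0.72) and Bach1 0.54 (−0.20 to 1.34).

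Both comparisons above share the GFP library, which was the shallowest. The miR-155 library was therefore also compared with that of miR-1, with GFP used for the cutoff but not in the ratio. All 3 members past the cutoff were at least 20% lower in miR-155, against 13.5% of all genes. Jarid2 was 2.15-fold lower, with a change of −1.10 (−1.61 to −0.59), and 1 of the 8 mRNAs with 2 or more 8mers had a lower value. Picalm was 1.69-fold lower, with −0.76 (−1.003 to −0.52). Rheb was 1.26-fold lower, with −0.34 (−0.56 to −0.11), so that its interval no longer spanned 0. The same 2 members, Jarid2 and Picalm, were at least 1.5-fold lower, against 3.3% of genes.

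The members with few reads in GFP had more in the 2 miRNA cultures. Bach1, with 93 reads in miR-155 and 64 in miR-1, had a change of −0.58 (−1.06 to −0.10) between them, whereas the interval against GFP spanned 0. Its level was 44.6 CPM in GFP, 66.1 in miR-1 and 44.0 in miR-155. Tab2 had −0.57 (−1.25 to 0.13) and Cebpb −1.03 (−2.18 to 0.13). Inpp5d had −1.50 (−2.85 to −0.20) on 10 and 13 reads, beside a summed level of microglial markers that was 31.3 CPM in miR-155 and 26.8 in miR-1. With any gene of at least 1 read in both libraries admitted, 7 of 7 members were at least 20% lower in miR-155 than in miR-1, against 22.8% of 12551 genes. Socs1, with 5 reads in miR-155 and 0 in miR-1, could not enter this count. The count includes Tab2 and Cebpb, whose intervals span 0.

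The members were then set beside mRNAs with the same kind of site. Past the cutoff, the median change in miR-155 against GFP was −0.76 for the 8 mRNAs with 2 or more 8mers, −0.39 for 37 with 1 8mer and at least 1 7mer, −0.30 for 119 with 1 8mer alone, −0.26 for 82 with 2 or more 7mers and no 8mer, and −0.22 for 200 with a single 7mer-A1. Jarid2 was the third lowest of the 8 mRNAs with 2 or more 8mers. Picalm was lower than most mRNAs of its class, with 8 of the 82 below it. Rheb lay near the middle of its class, with 106 of 200 below it. Bach1 and Tab2 could be placed with a cutoff chosen after the data had been seen, a mean of 5 RPM over the 3 cultures. Bach1 was then higher than most mRNAs with 1 8mer and at least 1 7mer, with 46 of 55 below it, whereas in miR-155 against miR-1 10 of the 55 were below it. Tab2 was lower than most mRNAs with 1 8mer alone, with 22 of 177 below it against GFP and 31 of 177 against miR-1. In miR-1 against GFP the same classes had medians from −0.12 to −0.02.

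**Figure D2:**
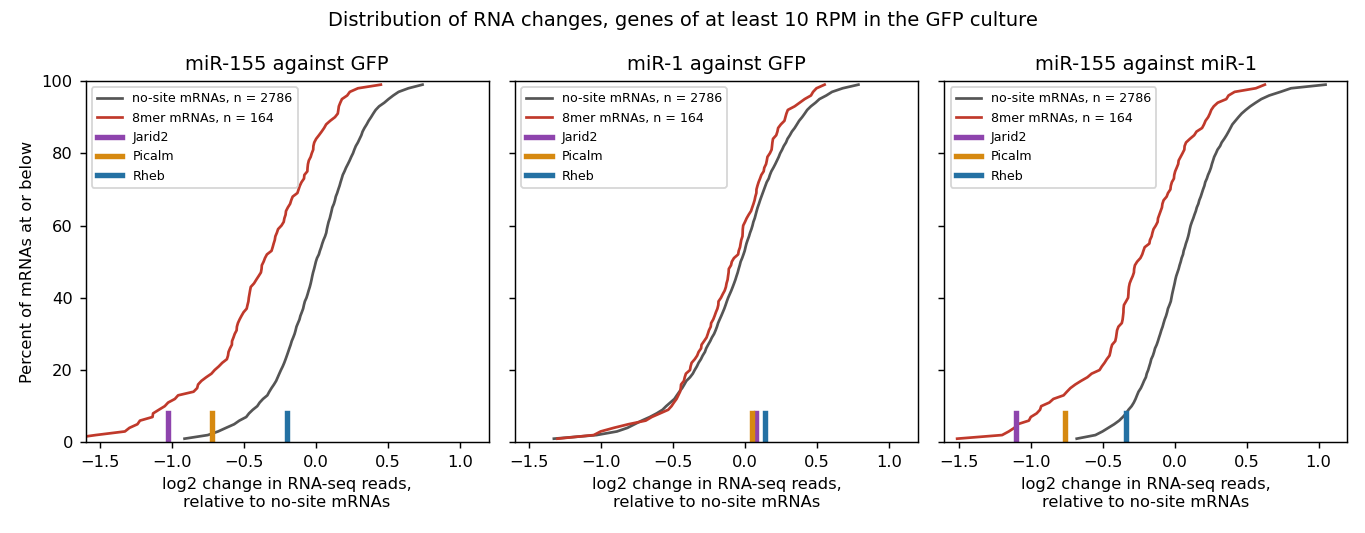
Cumulative distributions of the log2 RNA change (x axis, relative to no-site mRNAs) for mRNAs without a seed match to miR-155 and mRNAs with an 8mer to it (y axis, percent of mRNAs at or below, drawn from percentiles), with the values of Jarid2, Picalm and Rheb as vertical ticks. In both comparisons with the miR-155 culture the 8mer curve lies to the left and Jarid2 and Picalm fall in its lower part, whereas in miR-1 against GFP the curves lie close together and the 3 genes lie to the right of 0. Picalm and Rheb hold 7mers and no 8mer, so they are not among the mRNAs of the 8mer curve.

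The other 6 cortical cultures, none of them transduced, gave a wider reference. Across the 8 cultures without added miR-155 (GFP and miR-1 included), Jarid2 ran from 41.4 to 73.1 CPM with a median of 63.5, and the miR-155 culture, at 32.2, was below all of them. Picalm ran from 243 to 337 in the 8 cultures and was 154 with miR-155. Tab2 ran from 27.5 to 55.4 and was 22.3 with miR-155. Bach1 ran from 44.6 to 82.3 and was 44.0, which is level with the lowest of the 8. Rheb ran from 209 to 283 and was 212, within the range. Of the 5 members with a mean of at least 5 RPM in the other cultures, 4 thus had their lowest level of 9 cultures with miR-155, where 7.06% of 7306 genes did. By site, the share was 75.0% of 12 mRNAs with 2 or more 8mers, 25.9% of 259 with any 8mer and 4.99% of 4653 no-site mRNAs. None of the 5 had its lowest level in the GFP culture, where 11.3% of genes did, or in the miR-1 culture, where 13.9% did. The 4 members lowest with miR-155 could not also be lowest elsewhere, so only Rheb was free to count there. These counts are therefore no separate control. For Bach1 the place was decided by 44.0 CPM with miR-155 against 44.6 in GFP. Cebpb, below that mean, was also lowest with miR-155, at 7.10 CPM against 8.93 to 31.3, on 15 reads. Age in culture, stimulation and transduction differ between these cultures, the miR-155 library was the deepest of the 9, and this count was chosen after the data had been seen.

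**Figure D3:**
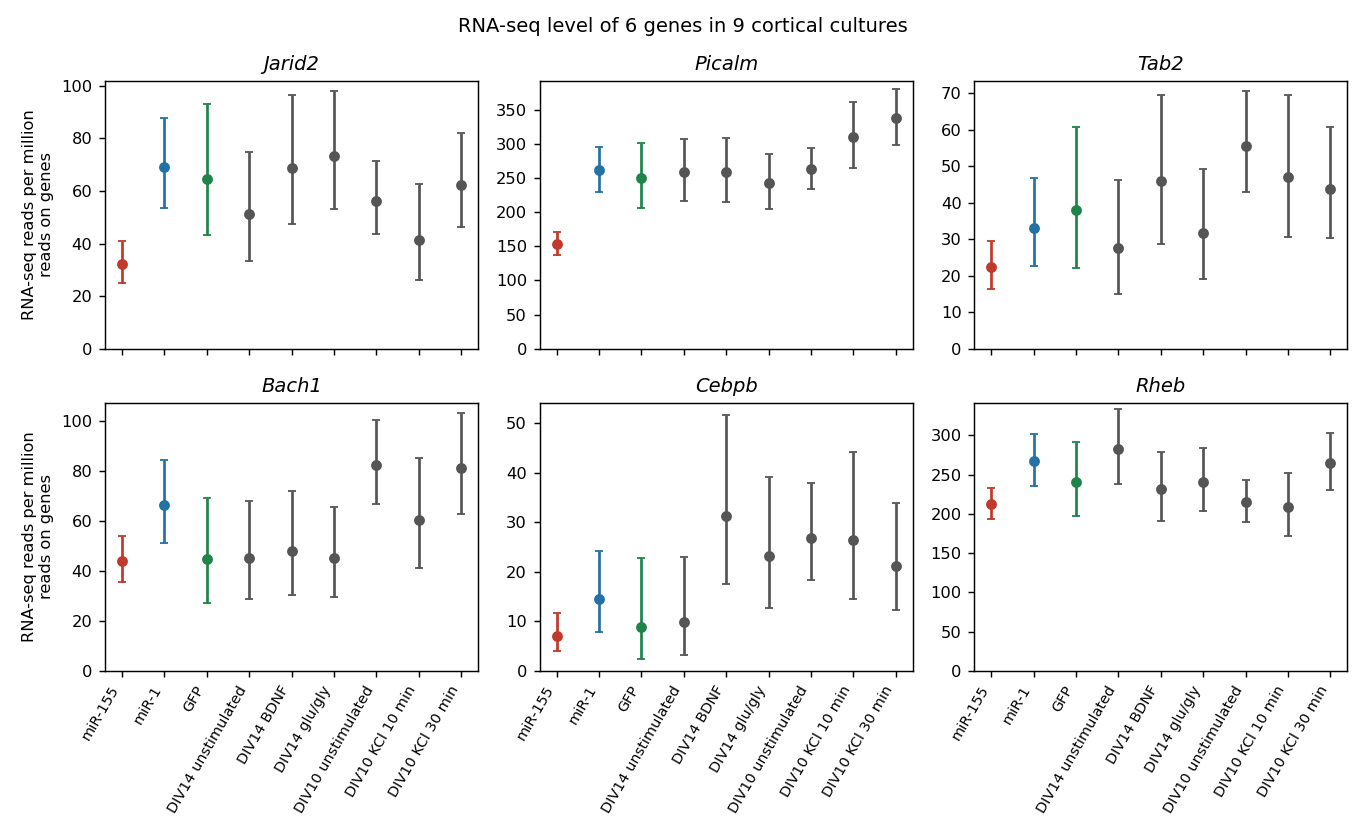
RNA-seq level (y axis, CPM, counts scaled to the library total on genes) of 6 genes in 9 cortical cultures (x axis), 1 library each, with 95% exact counting intervals as bars. The miR-155 culture is the lowest point for Jarid2, Picalm, Tab2, Bach1 and Cebpb, with the interval of Picalm clear of those of the other 8 cultures, and lies within the range for Rheb.

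TAIL-seq tags count the 3′ ends of the same mRNAs in a separate library, and there Tab2 showed the largest decrease among the members. With at least 20 tags in the GFP library, 4 members could be compared: Rheb, Picalm, Tab2 and Cebpb. This minimum, too, uses GFP alone, and Tab2 and Cebpb lay just above it. Tab2 had 25 tags in GFP, 36 in miR-1 and 12 in miR-155. Its change was −1.40 (−2.52 to −0.35) in miR-155 against GFP, 0.29 (−0.48 to 1.09) in miR-1 against GFP, and −1.70 (−2.77 to −0.72) in miR-155 against miR-1. Cebpb had 22, 22 and 15 tags and a change of −0.83 (−1.88 to 0.18) against GFP. Picalm, with 76, 83 and 79 tags, had −0.28 (−0.76 to 0.19), a smaller value than in RNA-seq with an interval that overlaps it. Against miR-1, Picalm tags changed by −0.18 (−0.65 to 0.28), an interval that does not reach the RNA-seq value of −0.76, and Picalm was the 1 of the 4 members that was not at least 20% lower there. Rheb, with 309, 407 and 342 tags, had −0.16 (−0.38 to 0.07) against GFP and −0.35 (−0.56 to −0.13) against miR-1, values close to those from RNA-seq. Thus 2 of 4 members were at least 20% lower in miR-155 against GFP, where 23.5% of 4181 genes were, 0 of 4 in miR-1 against GFP, where 25.7% were, and 3 of 4 in miR-155 against miR-1, where 18.9% were. Jarid2 had 5, 10 and 4 tags, Bach1 4, 5 and 4, Inpp5d 2, 1 and 2 and Socs1 0, 0 and 2, too few to compare.

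Tail lengths of Rheb and Picalm, the 2 members with enough tags, differed little between the miR-155 and GFP cultures. Deadenylation is the first step of miRNA-directed decay, so the mean length of the remaining tails is the second measurement of the comparison. With at least 50 tags in both libraries, 2 members passed. The mean tail of Rheb was 98.5 nt in GFP, 92.6 nt in miR-1 and 99.5 nt in miR-155. The mean tail of Picalm was 109.4 nt, 101 nt and 108.9 nt. Between miR-155 and GFP the differences were 0.93 nt for Rheb and −0.51 nt for Picalm, where the median difference of 1777 genes was −0.88 nt with an SD over genes of 7.24 nt. Between miR-1 and GFP they were −5.92 and −8.37 nt, where the median of 1742 genes was −2.53 nt with an SD of 7.45 nt. Picalm thus had no tail difference between miR-155 and GFP larger than the spread over genes. Its tags in these TAIL-seq libraries changed by −0.28 (−0.76 to 0.19). The decrease seen in RNA-seq was thus not clear in the libraries that gave the tails. For Tab2, the 12 tags in miR-155 had a mean tail of 126 nt and the 25 tags in GFP one of 95.8 nt, and for Cebpb the means were 89.1 and 100.3 nt on 15 and 22 tags, below the minimum and given as values only.

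The pathways around the members were examined for the same comparison, with genes of at least 10 RPM in the GFP culture and the same limit, at least 20% lower, which 20.4% of all genes passed, or at least 25% higher, which 11.5% passed. Of 31 other published miR-155 targets 7 could be compared, and 2 were lower and 0 higher, with a median of −0.05 beside −0.05 over all genes past the cutoff. Trp53inp1, a p53-induced autophagy gene with an 8mer, was lowest at −0.96 but was at −1.20 in miR-1 against GFP, and it also held a 7mer to miR-1. In miR-155 against miR-1, Trp53inp1 was at 0.24. Of the antioxidant genes around Bach1, 2 of 5 were lower and 1 higher. Nfe2l2 (NRF2), the activator that competes with Bach1 and whose mRNA held an 8mer to miR-155, was at −1.75 (−2.42 to −1.07), the lowest of the genes in these lists. It was at −0.998 with miR-1 against GFP, so both miRNA cultures were low beside GFP. In miR-155 against miR-1, Nfe2l2 was at −0.75. Ftl1, a ferritin subunit, was highest at 0.41. Of PRC2 subunits and partners of Jarid2, 0 of 3 passed the limit, from −0.24 for Mtf2 to 0.28 for Rbbp7.

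Around Picalm, 0 of 10 genes of the clathrin coat and its adaptors were lower and 3 were higher, with a median of 0.18. They ran from −0.12 for Cltc, the clathrin heavy chain, to 0.35 for Snap91, the neuronal paralog of Picalm, which held no site to miR-155. Of the mTORC1 genes around Rheb, 1 of 5 was lower (Rptor, −0.49, with a 7mer-m8) and 1 higher (Mtor, 0.67). In TAK1 signalling, 1 of 2 was lower, with Ikbkg at −0.56 and Map3k7, which encodes TAK1, at −0.12. Of the SOCS and JAK-STAT genes 2 of 6 were lower and 1 higher, from −0.61 for Jak2 to 0.33 for Socs7. Of the phosphoinositide phosphatases around Inpp5d 2 of 5 were lower and 1 higher, from −0.52 for Inpp5f to 0.41 for Inpp4a. In the C/EBP family the only gene past the cutoff was Cebpz at −0.39, a gene with an 8mer to miR-1 and no site to miR-155. In miR-1 against GFP, where 23.5% of all genes were at least 20% lower, the counts of lower genes were 2 of 7 for the other published targets, 4 of 5 for the antioxidant genes, 1 of 3 for PRC2, 0 of 10 for clathrin, 2 of 5 for mTORC1, 1 of 2 for TAK1 signalling, 2 of 6 for SOCS and JAK-STAT and 2 of 5 for the phosphatases, and Cebpz was at −0.86.

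Levels of the members differed widely between genes. Per kilobase of counted coding sequence, Rheb was the most abundant in the 9 cultures, with a median of 477 CPM per kb and a median rank above 98.2% of detected genes. Picalm followed with a median of 134 (89.0%). Cebpb, Bach1, Tab2 and Jarid2 had medians of 25.2, 22.1, 18.7 and 17.0, and neighbours in this order overlapped in their ranges over the cultures, whereas the lowest Bach1 value (20.30) lay just above the highest Jarid2 value (20.01). Inpp5d had a median of 1.43, and Socs1 had no read in 5 of the 9 cultures and at most 5 reads in any.

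In tissue, Inpp5d was higher than in the cultures for adult cortex and within their range for adult hippocampus. Its level was at 19.3 CPM in adult cortex and 13.3 in adult hippocampus, where microglial markers summed to 573 and 567, against 2.23 to 13.4 in the cultures, where these markers summed to 26.8 to 128. Jarid2 was highest of the 12 libraries in embryonic hippocampus, at 133 CPM, and so were Bach1 at 94.9 and Tab2 at 98.7, whereas Cebpb was lowest there at 1.30. Adult tissue had less Bach1, 18.1 in cortex and 14.0 in hippocampus, than any of the cultures. Rheb was higher in every culture than in the 3 tissues, where it ran from 102 to 163. Poly(A) selection was used for both hippocampal libraries and depletion of ribosomal RNA for cultures and adult cortex, and the part of this in the levels was not tested.

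The genes whose levels were most like those of the 3 abundant members over the 12 RNA-seq libraries, by Pearson's r of log2(RPM + 1), were Pus1 for Jarid2 (0.94), Sdhaf2 for Rheb (0.90) and Rufy2 for Picalm (0.93), each the highest of 8814 genes. These are descriptions over libraries that differ in depth and tissue.

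Translational efficiency (TE), the log2 ratio of ribosome footprints to RNA-seq reads in RPM, was taken in the 10 cultures and tissues with unambiguous footprint libraries, for genes of at least 10 RPM, and is given relative to the median of those genes. Jarid2 was below the median of genes in each of the 8 samples in which it passed. Its values ran from −2.13 in embryonic hippocampus to −0.38 in the unstimulated DIV14 culture over 7 of them, and in adult hippocampus, with 73 footprint reads beside 399 RNA-seq reads, it was at −3.84. Picalm was near or above the median of genes, from −0.11 to 0.70 over 10 samples. Rheb ran from −0.55 to 0.47 over 10 samples and was below 0 in 9 of them. Bach1 ran from −1.25 to −0.10 over 6 samples. Tab2 ran from −1.32 to −0.25 over 4 of the 5 samples in which it passed, and in the fifth, adult hippocampus, had 5 footprint reads beside 547 RNA-seq reads, a value of −8.16. In embryonic hippocampus Tab2 had 988 footprint reads and 759 RNA-seq reads. The cause of the low values of Jarid2 and Tab2 in adult hippocampus was not tested. Cebpb, Socs1 and Inpp5d passed in none of the 10.

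Few values of the members past the cutoff reached a 1.5-fold change after stimulation of the cultures. Past the cutoff, no member was at least 1.5-fold higher or lower in RNA-seq after KCl for 10 or 30 min or after BDNF, where 1.97%, 7.87% and 2.57% of genes were that much higher and 3.62%, 12.2% and 6.53% lower. After glu/gly Jarid2, with 44 reads against 26, was at 0.60 (−0.14 to 1.35), the only such RNA-seq value past the 1.5-fold limit, where 7.35% of genes were higher and 7.02% lower. Below the cutoff, Cebpb had 5 reads without stimulation, 15 after BDNF and 14 after glu/gly. Its changes were 1.70 (0.17 to 3.51) after BDNF, an interval above 0, and 1.32 (−0.23 to 3.15) after glu/gly, whereas its TAIL-seq tags, which passed, changed by 0.23 (−0.30 to 0.75) and 0.32 (−0.23 to 0.88). Tab2, also below the cutoff, was at 0.77 (−0.27 to 1.85) after BDNF. After KCl for 30 min Picalm was at 0.40 (0.16 to 0.64) and Rheb at 0.33 (0.06 to 0.60), both with intervals above 0. Their TAIL-seq tags, which passed, changed by 0.06 (−0.26 to 0.38) for Picalm and 0.13 (−0.04 to 0.31) for Rheb, both with intervals that span 0. In TAIL-seq, 2 values of members past the cutoff lay past the limit, both downward and both with intervals that span 0: Bach1 after BDNF at −0.61 (−1.59 to 0.32), where 6.86% of genes were lower, and Cebpb after KCl for 10 min at −0.63 (−1.32 to 0.05), where 6.76% were.

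The visual cortex gave the only groups with replicates, 4 mice in the dark and 4 exposed to light for 1 h. Tags were tested with edgeR's quasi-likelihood test and Benjamini-Hochberg adjustment over all genes, which called 1.34% of 9554 genes. None of the 7 members tested was called, 1 had an unadjusted p under 0.05, and Socs1, with at most 4 tags in a mouse, was not tested. Cebpb came nearest. Its TMM-normalized tags (CPM) were 45.4, 55.8, 42.0 and 58.7 in the dark and 85.2, 105.0, 65.6 and 64.2 in light, so that every light mouse lay above every dark mouse. Its log2 change was 0.64 ± 0.16 (SE), with means of 50.5 ± 8.0 and 80.0 ± 19.2 (SD, n = 4 each) and an adjusted p of 0.051 in edgeR, just short of the threshold. In edgeR the adjusted p was 0.043 with the sample number as a block, although the sample numbers did not pair the mice. Without dark mouse 4, light mouse 3 or light mouse 4 the edgeR value was 0.049, 0.035 and 0.015, and without light mouse 2 it rose to 0.28. Without a filter on low counts the adjusted p was 0.0038 in edgeR. Under the other alternatives, which were DESeq2, another normalization in edgeR and leaving out any other mouse, Cebpb was not called. Microglial markers summed to between 861 and 1067 CPM over the 8 mice, with overlapping groups. Rheb, by contrast, changed by 0.13 ± 0.08 (adjusted p = 0.68 in edgeR) and Jarid2 by −0.26 ± 0.22 (adjusted p = 0.79).

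Tail lengths of the 4 members with at least 50 tags in every mouse did not pass the test either. Limma called 0.231% of 4321 genes and 0 of 4 members, 0 of which had an unadjusted p under 0.05. The mean tail of Rheb was 80.5 ± 7.0 nt in the dark and 91.5 ± 11.3 nt in light (SD, n = 4 each), a difference of 11.0 ± 6.7 nt (SE, adjusted p = 0.999 in limma). Tab2 was at 71.7 ± 13.9 and 77.9 ± 14.2 nt, Picalm at 80.7 ± 5.1 and 84.3 ± 10.0 nt, and Cebpb at 88.0 ± 11.1 and 89.1 ± 7.3 nt. Over the 13 libraries of any kind in which Tab2 had at least 50 tags, a median of 21.2% of genes had shorter tails than Tab2. For Picalm and Rheb, each over 19 libraries, the medians were 53.3% and 32.6%.

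**Figure D4:**
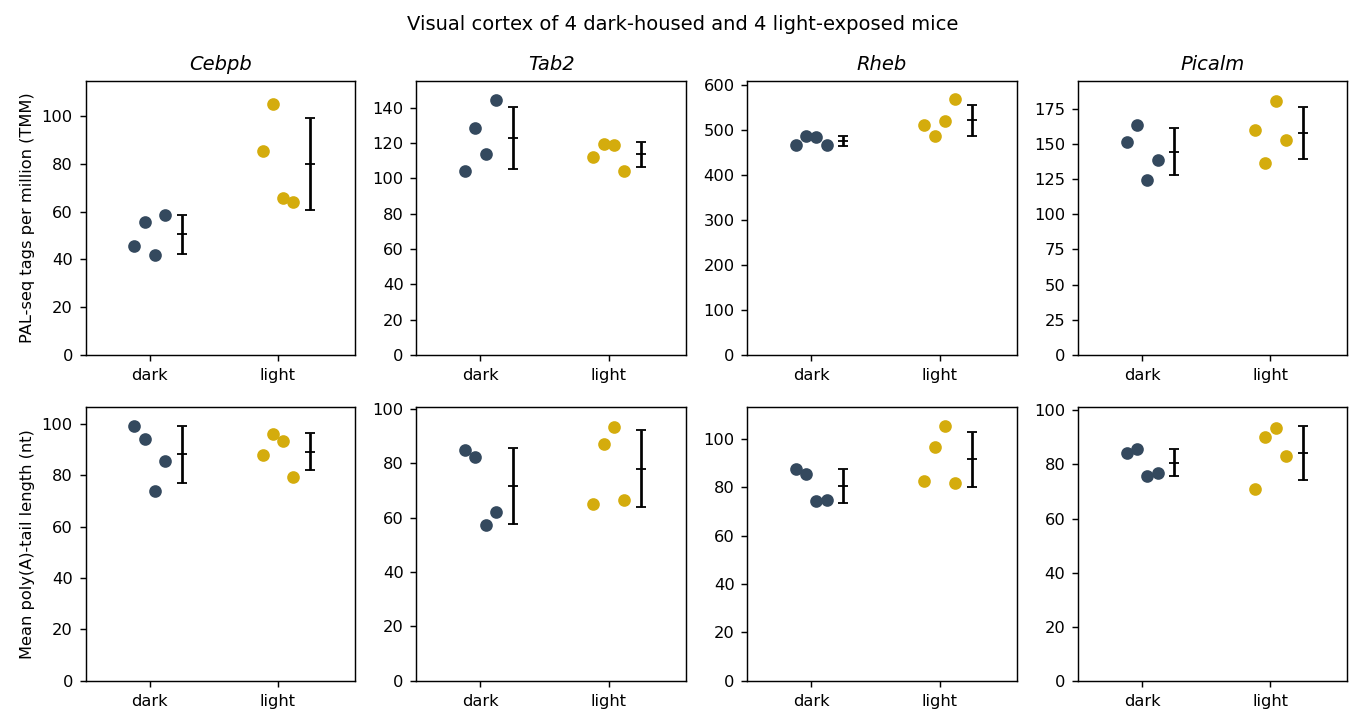
TMM-normalized PAL-seq tags in CPM (upper row) and mean poly(A)-tail length in nt (lower row) of Cebpb, Tab2, Rheb and Picalm in visual cortex, with 1 point per mouse and the mean and SD beside them, for 4 dark and 4 light-exposed mice. The Cebpb tags of the 4 light mice, 64.2 to 105.0, all lie above those of the dark mice, 42.0 to 58.7, and the groups overlap in each of the lower panels.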

How the data were processed

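The data comprise RNA-seq, ribosome profiling, TAIL-seq and PAL-seq v2 of cultures and brain tissue (44 samples). RNA-seq and footprint files as deposited hold whole read counts per RefSeq transcript, with RPM and RPKM that the authors computed from them. For the 8 genes the deposited length is the annotated coding sequence minus 50 nt, the part the authors counted. Tail files hold tag counts and mean tail lengths in nt that the authors derived with a hidden Markov model (medians, by their values, in the hippocampi, where tags were few in the embryo, 86841). Submitters' processing notes name STAR 2.4.2, bedtools and mm10. RefSeq GRCm38.p6 supplied symbols, coordinates, sites and 3′ UTRs. Counts on tail standards were left out. The 2 libraries with contradictory labels and 2 combined tables were not used.

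Ratios were scaled by the reads on genes, regressed on log10 3′-UTR length and centred on no-site mRNAs, following the study's normalization, at a minimum of 10 RPM (RNA-seq) or 20 tags in GFP, and 50 tags for tail lengths. Intervals are Clopper-Pearson, and floors are 3 counts. PCR duplicates are not marked, so both cover counting error only. At least 20% lower, or 25% higher, marks a change. Stimulated and unstimulated cultures were compared at the same minimum and centred on the median gene. Visual cortex was tested with edgeR 4.0.16 (TMM, filterByExpr) and limma 3.58.1 in R 4.3.3, where limma's prior degrees of freedom were infinite and every gene received the same standard error; DESeq2 1.42.0 was an alternative. PAL-seq tags on genes numbered 1233538 to 4812273 per mouse. The methods give 1 mouse per visual cortex sample, and litters are not named. Scripts were tested on simulated counts, and Python 3.11.15 was used.

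The members and lists were chosen with earlier results of these data known. All 8 members are named, from each list the genes with the lowest and the highest change past the cutoff and the closest paralog of a member, and for each member past the cutoff the most alike gene. One gene that this rule names is not reported here. The comparison over 9 cultures, with its mean of 5 RPM, was chosen after the data had been seen.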

Additional observations from a re-analysis of the deposited data

How the results depend on the processing

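Of 53 recomputed counts and summary values, 43 stayed within 1.5 times of the main value or within the spread named for them. The number of members at least 20% lower in miR-155 against GFP was 1 of 2 at a cutoff of 30 RPM, which leaves out Jarid2, and was 2 or 3 under the other alternatives. In miR-155 against miR-1 it was 1 at 30 RPM, 7 with no expression cutoff and 5 with a mean of 5 RPM over the 3 transduced cultures, an alternative chosen after seeing the data, under which 5 members passed. In miR-1 against GFP it was 0 under every alternative. For TAIL-seq tags it was 0 at a minimum of 50 tags, which leaves out Tab2 and Cebpb. The number of members called in light against dark was 1, Cebpb, with no filter on low counts, and 0 to 1 when each mouse was left out in turn. The sample numbers of the dark and light mice did not pair them (correlations of deviations of −0.20 to 0.03 for tags). With the replicate block the count was 1, for tails 0, and the block changed no other call. Changes near 0 took either sign as mice were left out, from −0.10 to 0.18 (log2) for Bach1 tags, from −0.12 to 0.13 for Inpp5d tags and from −3.71 to 4.75 nt for Cebpb tails. Without normalization, the authors' RPM moved miR-155 against miR-1 to −0.60 for Rheb and −1.03 for Picalm. Depth limits Socs1, Inpp5d and Cebpb, whose RNA-seq changes against GFP could not be read, and a single library per culture means that no difference between cultures has a replicate check.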
